A study of Mus musculus with 41 samples.

Results

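The genes of glycogen storage and breakdown described here are Gys1, Pygm, Pygb, Phka1, Phkg1, Gbe1, Ppp1r3a and Ppp1r3c. These 8 genes were chosen by name among the 21755 protein-coding genes on the autosomes and chromosome X. Every peak that overlapped a promoter window (2000 bp up- and downstream of an annotated transcription start site, TSS) or the gene body of a member was collected from 24 peak lists (mm10). The lists came from CUT&Tag, in which a transposase tethered to an antibody cuts the chromatin next to a histone post-translational modification (hPTM). They hold H3K18la, the lactylation of lysine 18 of histone H3, in 8 cell types, H3K27ac in 5, H3K4me3 in 4 and H3K27me3 in 7.

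The panel held mouse embryonic stem cells of the line E14, kept with LIF either in serum-containing medium (mESC-ser) or with the 2i inhibitors (mESC-2i), and primary cells and tissues of mice whose strain is C57BL/6 in the labels and C57Bl6/J in the study's methods. Muscle was represented by gastrocnemius tissue (GAS), by primary myoblasts (MB) and by myotubes (MT) after 3 days of differentiation. Macrophages derived from bone marrow (BMDM) were cultured with M-CSF for 7 days. Post-ischemia macrophages (PIM) were sorted as CD45+CD11b+F4/80+CD64+ cells from calf muscle 2 days after limb ischemia. Adipocyte nuclei (ADIPO) came from the epididymal fat of AdipoCre-NuTRAP mice, in which an adipocyte Cre driver labels the nuclei for capture. The study's methods describe female mice of 8 to 12 weeks, and of 10 weeks for the adipocytes. CUT&Tag was done on whole cells for the stem cells and on nuclei for every other cell type. The labels give every sample as a control, although PIM come from muscle after ischemia.

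Glycogen is the branched glucose polymer in which animal cells store carbohydrate, and skeletal muscle and liver hold most of it. Glycogen synthase extends the chains and the branching enzyme adds branch points. Glycogen phosphorylase releases glucose-1-phosphate and is switched on by phosphorylase kinase. Targeting subunits bring protein phosphatase 1 to the glycogen particle, where it activates the synthase and inactivates the phosphorylase. H3K4me3 and H3K27ac are hPTMs of active promoters, H3K27ac also of active enhancers, and H3K27me3 is the mark of Polycomb repression.

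A group had 1 or 2 samples, and the replicates of a group were pooled before peaks were called, so that each group is 1 list without a replicate error. List sizes differed: the 8 H3K18la lists held 13550 to 36813 peaks and covered 22.6 to 137 Mb, and the fragment coverage inside peaks came to 527 to 4374 Mb per list over all hPTMs. Sequencing depth was not analysed here. The labelled cell types were checked by their markers. H3K18la lay in promoter windows of 5 of 5 stem cell markers in both stem cell lists, of 6 of 6 muscle markers in GAS and MT, of 5 of 5 macrophage markers in BMDM and PIM and of 5 of 5 adipocyte markers in ADIPO. MB had H3K18la at 2 of 6 muscle markers, Myod1 and Des. The GAS list also held 4 of 4 markers of endothelial cells and fibroblasts, 2 of 5 of macrophages and 2 of 5 of adipocytes. Calls at markers of another cell type also occurred elsewhere, at 3 of 5 macrophage markers in MT, at 3 of 5 adipocyte markers in PIM and 2 of 5 in BMDM (Adipoq in both), and in ADIPO at 2 of 6 muscle and 2 of 5 macrophage markers. Their part in the results was not tested. Gastrocnemius nuclei come from all cells of the muscle, and a mark on more nuclei and more of the mark per nucleus cannot be told apart.

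With all peaks of each list, H3K18la was called at more of these 8 genes in GAS than in any other cell type. Among 23 other genes of glycogen metabolism, counted below, ADIPO had more calls (20) than GAS (15). All 8 members had an H3K18la peak in a promoter window in GAS, where 36.1% of all protein-coding genes had one. ADIPO followed with 6 of 8 members (44.7% of all genes) and MT with 5 of 8 (34.8%). H3K18la was called at 4 members in PIM (37.8%), at 3 in mESC-ser (33.4%), at 3 in mESC-2i (37.8%) and at 2 in BMDM (18.5%). In MB it was called at 0 of 8 (11.1%). MB and BMDM were the only H3K18la lists from 1 sample and covered the fewest bases, 40.5 and 22.6 Mb. The part of list size in these counts was not tested. GAS had the most H3K18la peaks of the 8 lists, and the order of GAS and ADIPO was not the same with reduced lists. With the 5000 strongest peaks of each list both had 5 members (8.30% of all genes in GAS and 9.16% in ADIPO), and with lists reduced to equal bases GAS had 2 (3.37%) and ADIPO 4 (4.99%). MT had 0 members with either reduction (6.38% and 2.31% of all genes), and PIM had 1 with either (7.69% and 6.84%). The shares in mESC-ser, mESC-2i and BMDM lay near those of all genes.

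The other active hPTMs were also called at most members in GAS. H3K27ac was called at 7 members in GAS (47% of all genes), at 6 in ADIPO (46.1%), at 4 in PIM (48.8%), at 4 in mESC-ser (40.2%) and at 3 in BMDM (34%). Pygb was the member without H3K27ac in GAS. H3K4me3 was called at 8 members in GAS (64.2%), at 7 in mESC-2i (61.8%), at 5 in PIM (59.4%) and at 3 in mESC-ser (48.8%). H3K27me3 was called at 0 members in GAS (23.9%) and 0 in MT (20.1%), at 1 in mESC-2i (22.5%), 1 in MB (12.5%) and 1 in PIM (26.4%), and at 2 in mESC-ser (27%) and 2 in BMDM (19.2%). Since each list is a single pooled set, these are descriptions with no test.

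**Figure D1:**
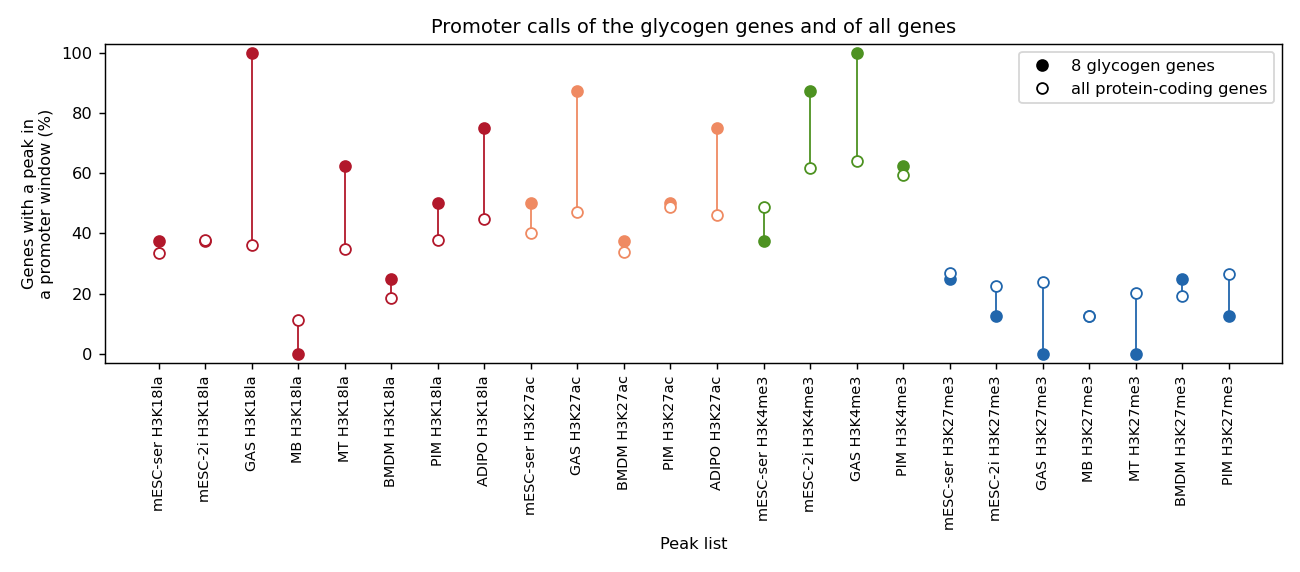
Share of genes with at least 1 peak in a promoter window (y axis, percent) in each of the 24 peak lists (x axis, coloured by hPTM), for the 8 glycogen genes (filled circles) and for all 21755 protein-coding genes (open circles). The filled circles lie farthest above the open ones for H3K18la in GAS, where 8 of 8 members and 36.1% of all genes were called.

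Promoter windows around every annotated TSS include internal and downstream starts, so calls were also read from the window of 2000 bp around the RefSeq start site alone. H3K18la lay in this start window in 25 of 64 combinations of member and list (28.7% of all genes and lists) and anywhere in the locus, promoter windows and gene body together, in 34 (38.4%). H3K27ac had 22 of 40 in the start window (41.8%) and 27 in the locus (47.1%). H3K4me3 had 19 of 32 (57.3%) and 25 (60.8%), and H3K27me3 had 6 of 56 (18.7%) and 9 (25.1%). The loci held 211 peaks in all, of which 50 also held a TSS of another protein-coding gene. With H3K18la, the start windows of all 8 members were called in GAS, as were those of 5266 of the 16450 genes with a RefSeq start.

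In GAS the start-window peaks of the members had larger median widths and higher median ranks than those of all genes, with Pygb for H3K18la (1812 bp, top 77.0%) and Phka1 for H3K27ac (2798 bp, top 57.2%) below those medians in both. Peaks were ranked within their own list by total signal, which adds up the fragment coverage along the peak, and a rank is given as the top percent of the list. The 8 H3K4me3 start peaks in GAS had a median width of 5656.5 bp and a median rank in the top 4.36%, while the 10335 genes with an H3K4me3 start peak in GAS had medians of 2350 bp and 22.7%. Of the 8, 7 lay in the top 10% of the list, as did 23.1% of those genes. For H3K27ac in GAS the 7 called members had medians of 18869 bp and 2.80% (all genes 4977 bp and 31.3%), and for H3K18la the 8 members had 5085.5 bp and 13.5% (all genes 2312 bp and 43.1%). In the top 10% were 6 of the 7 H3K27ac peaks (19.5% for all genes) and 3 of the 8 H3K18la peaks (14.2%). Ranked by maximum signal instead, the GAS medians lay lower in the lists, at 12.3% for H3K4me3, 5.32% for H3K27ac and 16.7% for H3K18la. In the top 10% were then 4 of the 8 H3K4me3, 5 of the 7 H3K27ac and 1 of the 8 H3K18la start peaks. Ranks of all genes by maximum signal were not computed. In ADIPO the 6 members with an H3K18la start peak had medians of 5484 bp and 10.0% (all genes 1875 bp and 44.5%). In MT the 5 members had 2510 bp and 43.7%, beside 2738 bp and 49.4% for all genes. In PIM the 3 members ranked lower than all genes, with 1308 bp and 76.6% beside 1618 bp and 42.8%. The 2 members in BMDM also ranked lower, with 1022.5 bp and 62.6% beside 969 bp and 52.4%. A neighbouring gene can share a wide peak, so the peaks of all genes are not independent of each other.

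**Figure D2:**
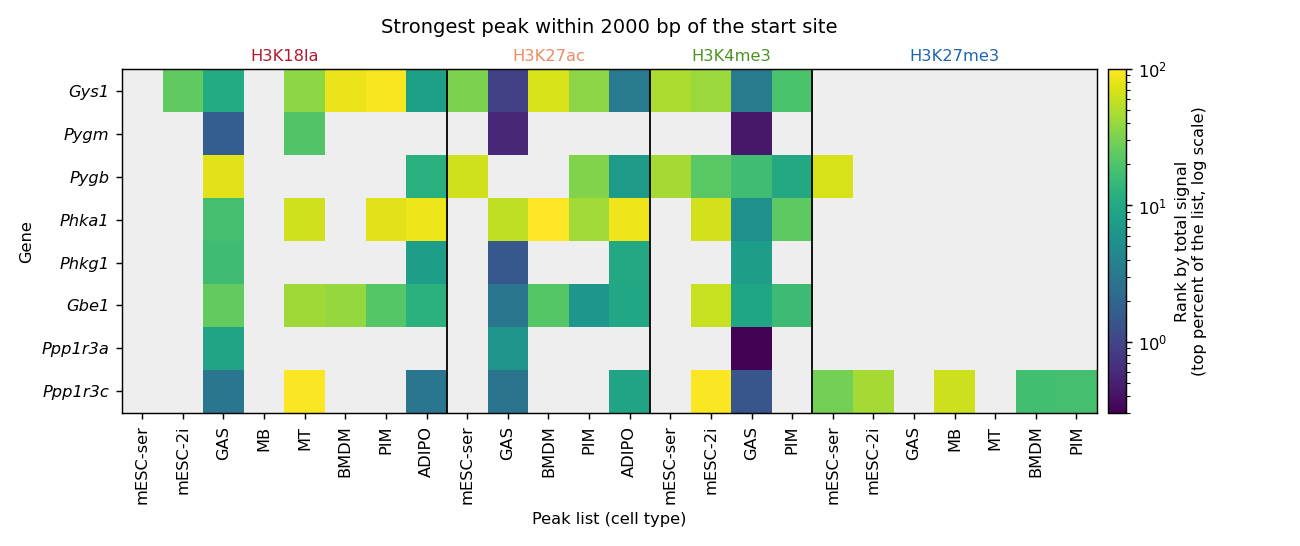
Rank by total signal of the strongest peak in the start window of each member (rows) in each peak list (columns, grouped by hPTM), as the top percent of the list on a log colour scale. Grey cells have no peak. The darkest cells, the highest ranks, are those of Ppp1r3a (top 0.308%) and Pygm (top 0.432%) for H3K4me3 in GAS.

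Gys1 encodes the muscle form of glycogen synthase, the enzyme that lengthens the glycogen chain. It lies on chromosome 7 (chr7:45434844-45456619, plus strand) and was the member with the most widely called start window, with H3K18la in 6 of 8 lists, H3K27ac in 5 of 5 and H3K4me3 in 4 of 4. H3K27me3 was called nowhere in the locus in 7 lists. The H3K18la start peak was 5588 bp wide in GAS (top 10.5%), 6387 bp in ADIPO (top 8.10%), 5274 bp in MT (top 37.3%) and 8337 bp in mESC-2i (top 23.95%). In the macrophages it ranked low, with 793 bp in BMDM (top 85.1%) and 1308 bp in PIM (top 95.2%), in lists whose median peak widths were 916 and 1615 bp, against 4595 bp in mESC-2i. In GAS, H3K27ac formed one block of 27721 bp (top 0.938%) that ran from position -9998 to position 17722 relative to the start site. Each of these start peaks also held a TSS of Ruvbl2, a component of chromatin remodelling complexes on the opposite strand, whose nearest start lies at position -130 relative to that of Gys1. The lists cannot assign such a peak to one of these genes.

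At the other end of Gys1, 6 peaks ranked in the top 10% of their lists, and all of them also held a TSS of the ferritin light chain gene Ftl1 (that of H3K27ac in GAS also one of Bax). The highest was H3K4me3 in PIM, a peak of 6458 bp in the top 0.703%. H3K18la was called there in PIM with 6728 bp (top 2.39%). These peaks overlap exon sequence at the end of Gys1 and count as peaks of its body by overlap only.

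Gbe1 encodes the branching enzyme and is the longest member, 255768 bp on chromosome 16 (chr16:70313949-70569716, plus strand). Its start window had H3K18la in GAS, MT, BMDM, PIM and ADIPO, H3K27ac in GAS, BMDM, PIM and ADIPO, and H3K4me3 in mESC-2i, GAS and PIM. The strongest H3K18la start peak of a list ranked from the top 12.4% (ADIPO, 5011 bp) to the top 43.7% (MT, 2196 bp). The 2 stem cell H3K18la lists and all 7 H3K27me3 lists held no peak anywhere in the locus.

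Within the gene body of Gbe1, 41 peaks were called outside the promoter windows. A stretch of 964 bp (chr16:70330508-70331471), 16559 to 17522 bp behind the start site and touching no exon of the annotation, lay inside H3K18la peaks of GAS, MB, MT, BMDM, PIM and ADIPO. The widths of these 6 peaks were 4105, 1360, 1648, 1436, 3472 and 3142 bp in that order. Their ranks were the top 26.1%, 60.2%, 42.2%, 24.04%, 5.45% and 16.1% of their lists. PIM had the highest rank of the 6, and its peak was in the top 1.70% by maximum signal. MB, with no H3K18la in any promoter window of the 8 genes, had 2 H3K18la peaks in the 8 loci, both in the body of Gbe1, and this was one of them. The stretch was also covered by H3K27ac in GAS, PIM and ADIPO and by H3K4me3 in PIM. It held no H3K27ac peak in BMDM and no peak of any profiled hPTM in the stem cells. The middle 300 bases are printed because they lie in the middle of the stretch that 6 H3K18la lists shared, with CpG dinucleotides in capitals (GRCm38.p6, plus strand, chr16:70330840-70331139).

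Gbe1 intron: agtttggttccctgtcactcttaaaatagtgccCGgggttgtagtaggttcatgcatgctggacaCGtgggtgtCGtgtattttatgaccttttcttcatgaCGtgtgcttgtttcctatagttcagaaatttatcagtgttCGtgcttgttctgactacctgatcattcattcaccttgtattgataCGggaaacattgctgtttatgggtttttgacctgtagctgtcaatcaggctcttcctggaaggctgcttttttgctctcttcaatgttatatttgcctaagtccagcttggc

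The GC content of these bases was 42.7%, with 6 CpG dinucleotides. Motifs were searched on both strands. The E-box core was spelled CAGCTG, a site of basic helix-loop-helix factors. The motif of the TATA box was spelled TATAAA and was searched the same way. For the AP-1 family of factors the letters searched were TGANTCA with any base at N. The PU.1-type motif was GAGGAAGT. The MEF2 motif was searched in the strict form of its consensus, with A or T allowed at each of the 4 middle positions, and is given by name. There was no match of any of them in this window. Of 19417 windows of the same length in the middle of PIM H3K18la peaks more than 2000 bp from any TSS, 18.9% held the AP-1 core, 16.8% the E-box core, 15.4% the TATA motif, 5.16% the PU.1-type motif and 0.685% the MEF2 motif.

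**Figure D3:**
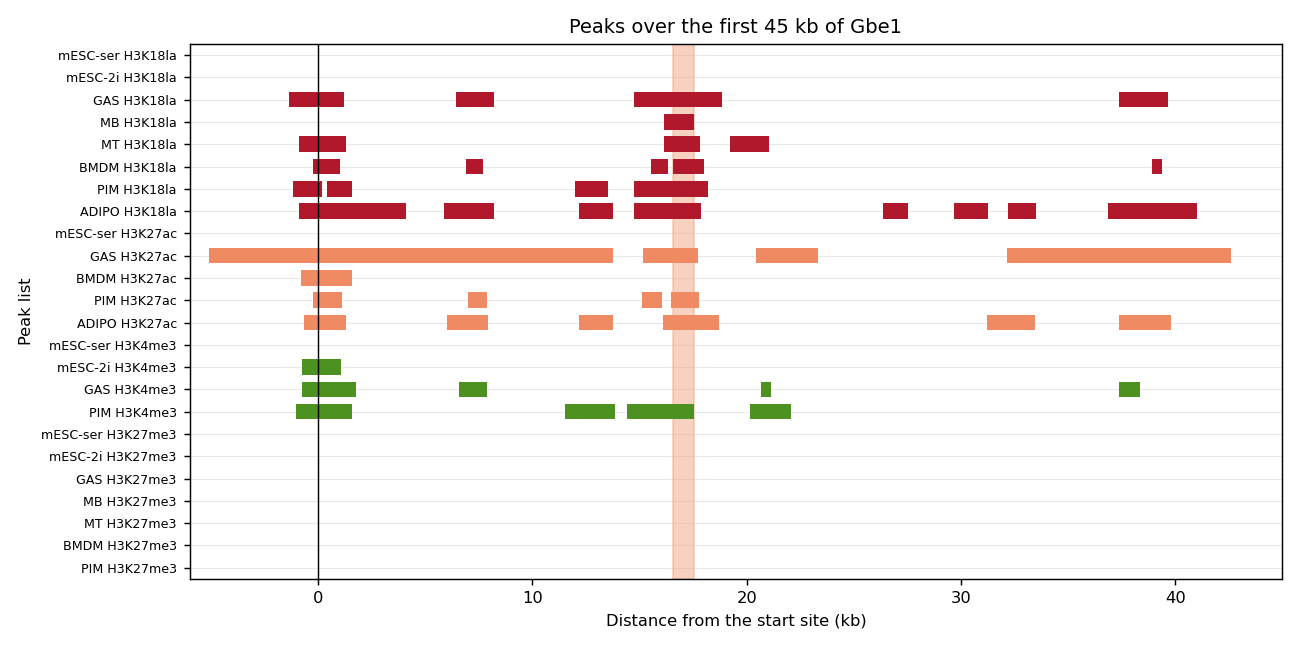
Peaks over the start of Gbe1, with the distance from the RefSeq start site on the x axis (kb) and 1 row for each of the 24 peak lists, coloured by hPTM. The shaded band is the stretch of 964 bp inside H3K18la peaks of 6 cell types. The stem cell rows have no H3K18la peak, and all H3K27me3 rows are empty.

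Pygm and Pygb encode the muscle and brain forms of glycogen phosphorylase, the enzyme that breaks glycogen down. Pygm (chr19:6384399-6398459, plus strand) had start peaks in GAS and MT only, among the lists profiled. H3K27ac and H3K4me3 were not profiled in MB or MT. In GAS the H3K18la peak was 15443 bp wide (top 1.71%), the H3K27ac peak 28392 bp (top 0.575%) and the H3K4me3 peak 7149 bp (top 0.432%). In MT the H3K18la peak was 4424 bp wide (top 20.9%). The GAS H3K18la peak also held a TSS of Sf1 and the GAS H3K27ac peak one of Rasgrp2, whereas the MT and H3K4me3 peaks held no other gene's TSS. MB had no H3K18la peak in the locus, nor had BMDM, PIM or ADIPO.

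The promoter calls of Pygm in stem cells came from elsewhere in the gene. H3K18la peaks of mESC-ser lay from 4092 to 7383 bp and from 12073 to 27134 bp behind the start site. The second of these held the TSS of Rasgrp2, a guanine nucleotide exchange factor gene that starts 14932 bp behind the start of Pygm, within 2000 bp of an annotated downstream Pygm transcript start. The mESC-2i H3K18la and both stem cell H3K4me3 lists also had a peak over it, and so did H3K27me3 in BMDM (6515 bp). H3K27ac in mESC-ser, the active hPTMs in GAS and H3K4me3 in PIM had one too. In PIM this peak of 853 bp was the only one at Pygm and alone gave its H3K4me3 promoter call. No stem cell list had a peak of any hPTM at the start site of Pygm.

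Pygb (chr2:150786735-150831758, plus strand) showed another distribution. Its start window carried H3K4me3 in 4 of 4 lists, with widths of 2300 bp in GAS, 2306 bp in mESC-2i, 2364 bp in mESC-ser and 4340 bp in PIM. H3K18la was called in the start window in ADIPO (5957 bp, top 11.96%) and in GAS (1812 bp, top 77.0%). H3K27ac was called there in ADIPO (4578 bp, top 7.07%), PIM and mESC-ser, and not in GAS. Pygb was thus the member with the weakest H3K18la start peak in GAS.

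ADIPO had a run of H3K18la over the body of Pygb. Peaks of 8188, 7000, 5266 and 7882 bp began 18625, 28291, 35729 and 41282 bp behind the start site and ranked in the top 3.78%, 6.97%, 5.67% and 5.20% of the list. Covered share, the percentage of the bases of the locus inside peaks, was 65.9% in ADIPO, 14.04% in PIM, 3.85% in GAS, 1.70% in BMDM and 0 in the other 4 cell types. H3K27ac of ADIPO covered the same part of the gene with peaks of 5382, 12194 and 7267 bp, the first in the top 4.68%. None of these peaks held a TSS of another protein-coding gene, while annotated internal starts of Pygb lie among them. In mESC-ser, an H3K27me3 peak of 1981 bp lay from position -3233 to position -1253 (top 70.2%), beside the H3K4me3 peak that began at position -905.

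The RefSeq promoters of Pygm and Pygb are shown because they differ in their number of CpG dinucleotides. Each runs from 250 bases before to 50 bases after the start (GRCm38.p6), 5′ to 3′ on the strand of the gene, with CpG dinucleotides in capitals. Pygm is chr19:6384158-6384457 and Pygb is chr2:150786546-150786845, both on the plus strand.

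Pygm: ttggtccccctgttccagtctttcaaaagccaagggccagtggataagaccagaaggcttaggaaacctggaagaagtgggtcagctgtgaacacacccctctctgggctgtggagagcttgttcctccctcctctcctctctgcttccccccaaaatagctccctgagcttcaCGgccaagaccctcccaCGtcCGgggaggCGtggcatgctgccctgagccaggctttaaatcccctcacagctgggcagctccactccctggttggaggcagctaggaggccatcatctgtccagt

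Pygb: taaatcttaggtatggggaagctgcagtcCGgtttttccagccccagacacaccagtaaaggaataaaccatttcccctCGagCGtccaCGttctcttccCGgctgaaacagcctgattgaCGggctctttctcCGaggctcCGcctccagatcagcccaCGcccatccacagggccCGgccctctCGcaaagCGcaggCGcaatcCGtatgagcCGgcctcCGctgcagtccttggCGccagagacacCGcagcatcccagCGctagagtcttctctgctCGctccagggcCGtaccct

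The promoter of Pygm held 4 CpG dinucleotides, an observed over expected ratio of 0.157, while that of Pygb held 21, a ratio of 0.795. Pygm had CAGCTG at 168 and at 8 bases before the start.

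Phosphorylase kinase phosphorylates and so activates glycogen phosphorylase. Phka1 encodes its muscle alpha subunit, a regulatory subunit, on chromosome X (chrX:102513975-102644246, minus strand). H3K18la was called in its start window in GAS (4583 bp, top 17.8%), MT (2510 bp, top 65.3%), PIM (1274 bp, top 76.6%) and ADIPO (1365 bp, top 87.1%). H3K4me3 in GAS was a peak of 7139 bp in the top 5.50%, against 2126 bp in mESC-2i (top 67.3%) and 2687 bp in PIM (top 23.9%). H3K27ac in GAS was a peak of 2798 bp (top 57.2%), narrower than the median of 4977 bp over the start peaks of all genes.

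Phka1 had H3K27me3 in its body, 7 peaks in GAS and 3 in MT, and none in the other 5 lists. The highest of them was a GAS peak of 4790 bp, 102003 to 106792 bp behind the start site (top 26.3%). These peaks covered 17.0% of the gene body in GAS and 13.0% in MT. Chromosome X as a whole moved with this: H3K27me3 peaks covered 4.92% of it in GAS and 6.30% in MT, and 0.407% to 1.00% in the other lists. On the autosomes coverage was 2.18% to 6.58%. Over the 948 protein-coding genes of chromosome X the mean covered share of the gene body was 11.3% in GAS and 13.8% in MT. The part of the chromosome-wide level in the Phka1 peaks was not tested. The sample labels give no sex, and the study's methods describe female mice. Whether the sex of the source animals or of the stem cell line differed between lists was not tested.

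Phkg1 encodes the muscle catalytic gamma subunit (chr5:129863421-129898549, minus strand, RefSeq start site at 129879088). Among the profiled lists, its start window was called in GAS and ADIPO alone. In GAS, H3K18la was 2684 bp wide (top 16.4%), H3K27ac 24237 bp (top 1.49%) and H3K4me3 2927 bp (top 7.56%). In ADIPO, H3K18la was 4034 bp wide (top 7.63%) and H3K27ac 4051 bp (top 9.95%). The start window of Phkg1 was called for no profiled hPTM in the stem cells, MB, MT, BMDM or PIM. For MB and MT only H3K18la and H3K27me3 were profiled. In mESC-ser and mESC-2i, the nearest H3K18la peaks began 2996 and 3001 bp behind the start. Of the 32 peaks in the locus, 15 held a TSS of Chchd2 or Zbed5, genes whose starts lie inside the annotated span of Phkg1, and these were called in stem cells and macrophages too. The highest ranked body peak, H3K4me3 of 2282 bp in GAS (top 18.98%), was one of them.

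Ppp1r3a and Ppp1r3c encode targeting subunits of protein phosphatase 1, the first also known as the muscle form GM and the second as PTG. Ppp1r3a (chr6:14713977-14755274, minus strand) was called in GAS for H3K18la, H3K27ac and H3K4me3, and in no other cell type where these were profiled. H3K18la was profiled in all 8 cell types. H3K27ac was not profiled in mESC-2i, MB or MT, and H3K4me3 was not profiled in MB, MT, BMDM or ADIPO. The H3K4me3 start peak of 9800 bp ranked 89 among 28915 peaks, the top 0.308%. H3K18la spanned 6354 bp at the start (top 8.91%) and H3K27ac 13429 bp (top 6.21%). H3K18la and H3K27ac also had peaks at the end of the gene, of 4546 bp (top 23.2%) and 5851 bp (top 22.3%). MB and MT, also of muscle origin, had no H3K18la or H3K27me3 peak in the locus. H3K27me3 was not called at Ppp1r3a in any of the 7 lists, so that the profiled cell types without active hPTMs did not carry this mark there either.

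Ppp1r3c (chr19:36731731-36736653, minus strand) was the member with H3K27me3 in its start window in the most lists, 5 of 7, beside 1 of 7 for Pygb and 0 for the other members. H3K18la was called in GAS (11361 bp, top 2.91%), in ADIPO (10510 bp, top 2.97%) and in MT (1510 bp, top 96.2%). H3K27ac was called in GAS (17614 bp, top 2.80%) and ADIPO (4336 bp, top 8.84%). H3K4me3 was called in GAS (5876 bp, top 1.43%) and, as a narrow peak, in mESC-2i (1451 bp, top 95.8%).

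H3K27me3 at Ppp1r3c was called in mESC-ser, mESC-2i, MB, BMDM and PIM, and not in GAS or MT. It was widest in BMDM with 10988 bp (top 17.2%) and in PIM with 7447 bp (top 18.1%). In mESC-ser it formed a pair of peaks of 4700 bp (top 29.6%) and 1301 bp, in mESC-2i a peak of 5746 bp (top 45.7%) and in MB a peak of 2040 bp (top 64.1%). The covered share of the locus was 100% in BMDM, 94.5% in PIM, 71.2% in mESC-ser, 61.5% in mESC-2i, 29.5% in MB and 0 in GAS and MT. No cell type had both H3K18la and H3K27me3 at this gene, and mESC-2i had H3K4me3 beside H3K27me3. H3K27me3 was not profiled in ADIPO.

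The promoters of these targeting subunit genes are shown for the same contrast as at the phosphorylases, with CpG dinucleotides in capitals. Ppp1r3a is chr6:14755225-14755524 and Ppp1r3c is chr19:36736555-36736854, both on the minus strand.

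Ppp1r3a: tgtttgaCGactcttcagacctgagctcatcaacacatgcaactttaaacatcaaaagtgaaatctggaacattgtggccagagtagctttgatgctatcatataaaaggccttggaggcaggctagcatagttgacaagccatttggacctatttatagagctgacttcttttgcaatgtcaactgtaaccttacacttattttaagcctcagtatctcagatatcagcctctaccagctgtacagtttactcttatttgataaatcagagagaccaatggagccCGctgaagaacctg

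Ppp1r3c: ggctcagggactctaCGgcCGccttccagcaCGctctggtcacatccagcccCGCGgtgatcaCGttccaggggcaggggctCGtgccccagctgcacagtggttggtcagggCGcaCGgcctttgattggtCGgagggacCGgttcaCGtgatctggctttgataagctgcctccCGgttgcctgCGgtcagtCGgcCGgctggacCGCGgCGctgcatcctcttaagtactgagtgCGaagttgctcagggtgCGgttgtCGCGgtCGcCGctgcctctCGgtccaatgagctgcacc

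Ppp1r3a held 2 CpG dinucleotides (ratio 0.159), and Ppp1r3c held 26 (ratio 0.813). A MEF2 motif began 100 bases before the start of Ppp1r3a and overlapped a match of TATAAA on the other strand, and a CAGCTG began 14 bases before the start. The MEF2 motif occurred in 183 of 32851 RefSeq promoters of this length (0.557%) and TATAAA in 13.6%. CAGCTG was present in 5 of the 8 members (Gys1, Pygm, Phka1, Ppp1r3a and Ppp1r3c) and in 16.3% of all promoters. TGANTCA (7.81% of promoters) and GAGGAAGT (3.20%) were in none of the 8. A match is a description of the letters and not a bound site.

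**Figure D4:**
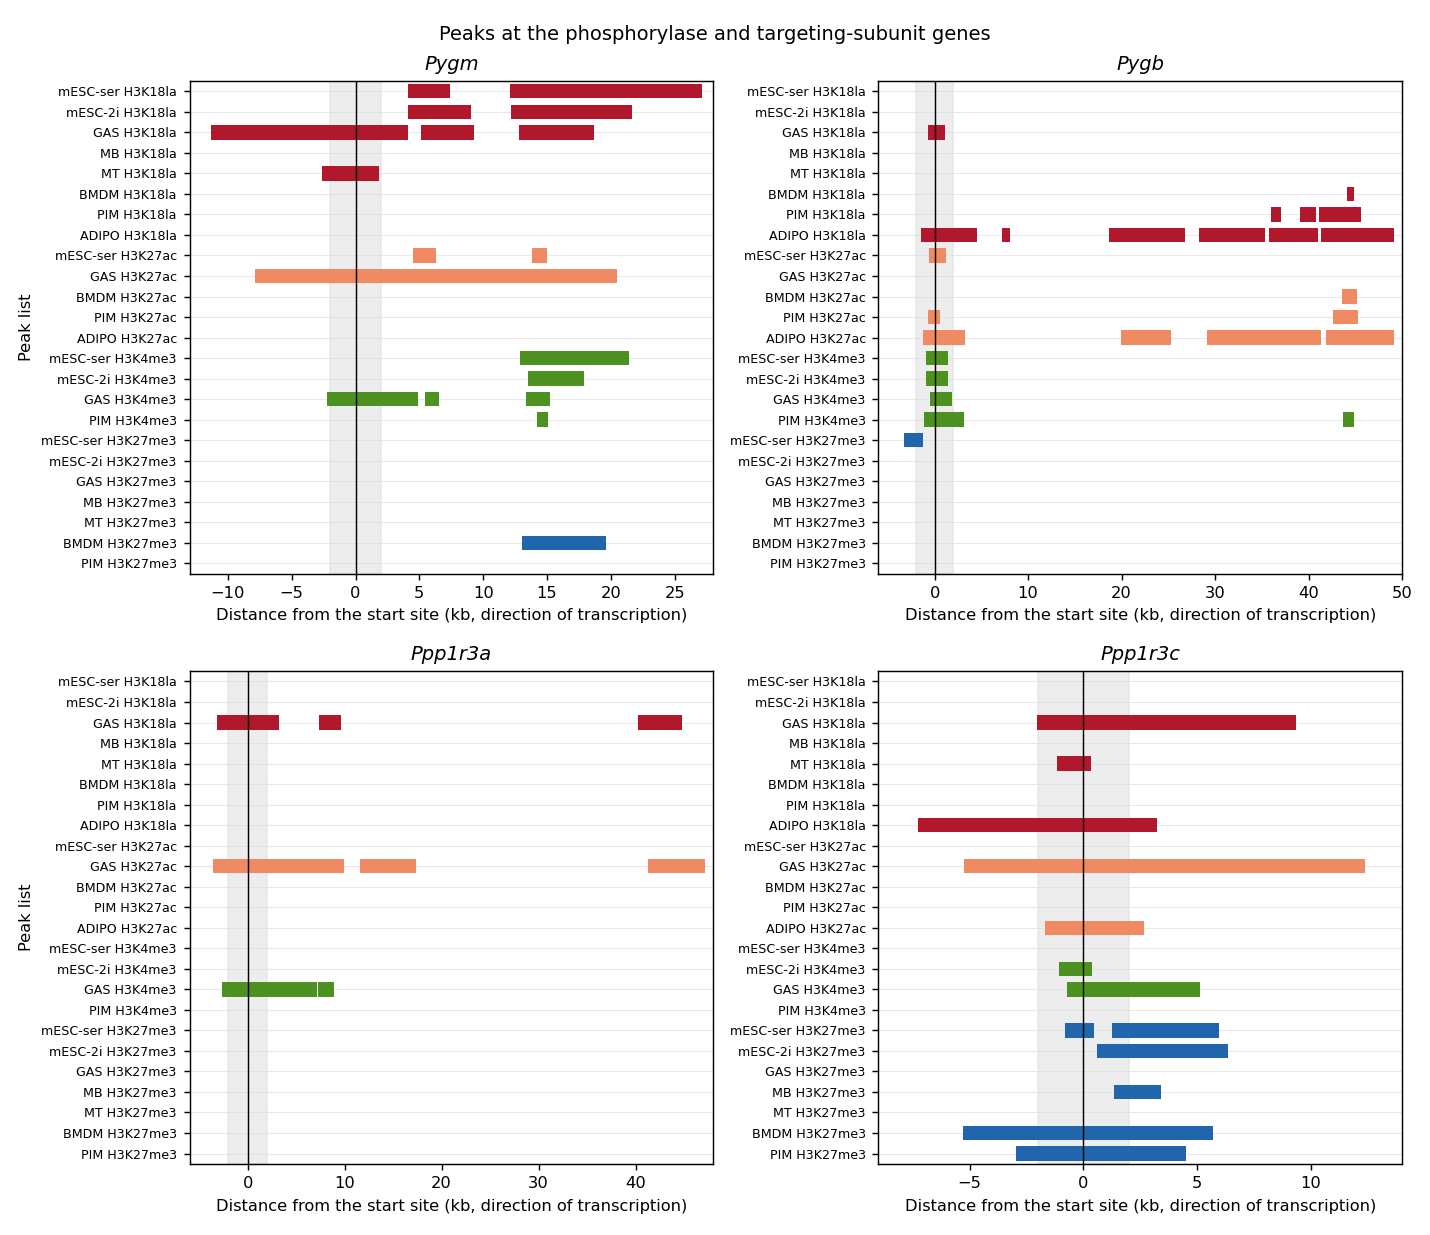
Peaks at Pygm, Pygb, Ppp1r3a and Ppp1r3c, with the distance from the RefSeq start site in the direction of transcription on the x axis (kb) and 1 row for each peak list, coloured by hPTM. The shaded band is the start window of 2000 bp on each side. Ppp1r3a has peaks in the 3 GAS rows of active hPTMs alone, and Ppp1r3c has H3K27me3 in 5 rows other than GAS and MT.

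The CpG content of the promoters separated the members at the median of all promoters. The observed over expected CpG ratio was 0.112 at Phkg1, 0.157 at Pygm and 0.159 at Ppp1r3a, below the median of 0.384 over all 32851 promoters. It was 0.553 at Gys1, 0.650 at Gbe1, 0.795 at Pygb, 0.813 at Ppp1r3c and 0.849 at Phka1. In GAS all 3 CpG-poor members had start peaks of H3K18la, H3K27ac and H3K4me3, while of the 5961 genes below the median ratio 15.3%, 16.6% and 19.1% had them. In mESC-2i H3K4me3 lay at 0 of the 3 CpG-poor and at 5 of the 5 other members, and at 14.5% and 86.4% of all genes in these classes. In PIM the counts for H3K4me3 were 0 of 3 and 4 of 5, with 18.5% and 81.1% of all genes. In mESC-ser they were 0 of 3 and 2 of 5, with 8.67% and 69.7% of all genes. The CpG-poor members outside GAS had start peaks at Pygm in MT and at Phkg1 in ADIPO.

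Within a cell type, start windows of the members with H3K18la mostly carried the other active hPTMs, and so did those of all genes. Over the 5 cell types with both marks, 18 of 40 combinations had H3K18la and H3K27ac, 1 had H3K18la alone (Pygb in GAS) and 4 had H3K27ac alone. H3K27ac was thus present at 94.7% of the H3K18la-marked start windows, and at 86.2% of those of all genes. Over the 4 cell types with H3K4me3, 12 of 12 H3K18la-marked start windows had H3K4me3 (91.8% for all genes), and 7 had H3K4me3 alone. H3K27me3 lay in 0 of the 19 H3K18la-marked start windows of 7 cell types, where the share for all genes was also low (8.57%).

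Whether the loci of the members differ between cells of the muscle lineage and other cells was tested on the covered share, with the cell type as the unit and GAS, MB and MT as muscle (exact two-sided permutation test). The grouping of cell types by tissue of origin is taken from the labels. These units are related: MT were differentiated from MB, mESC-ser and mESC-2i are the same line in different media, and BMDM and PIM are both macrophages. The test treats them as separate and exchangeable, so its p-values are descriptive. For H3K18la 0 of the 8 members reached an exact p of at most 0.05 in either direction, where 2.73% of the 21755 genes did with muscle higher and 0.244% with muscle lower. The smallest p that 56 assignments allow is 0.0179, and no gene passed after Benjamini-Hochberg adjustment over all genes (smallest adjusted p 0.966). The median difference of the 8 members was 0.928 percentage points, and that of all genes was 0.

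The H3K18la values of the muscle cell types differed widely among themselves. The MB list came from 1 sample, and those of GAS and MT from 2 samples each. The covered share of Pygm was 73.0% in GAS, 22.3% in MT and 0 in MB, against 36.9% in mESC-ser, 45.4% in mESC-2i and 0 in the other cell types. Means were 31.8% ± 37.4 (SD, n = 3 cell types) and 16.5% ± 22.7 (SD, n = 5), with an exact permutation p of 0.571. For Ppp1r3c the shares were 99.7% in GAS, 21.8% in MT, 76.6% in ADIPO and 0 in the other 5, with means of 40.5% ± 52.4 (SD, n = 3) and 15.3% ± 34.2 (SD, n = 5) and an exact permutation p of 0.554. For Ppp1r3a the share was 19.6% in GAS and 0 elsewhere (exact permutation p = 0.375). In each case the spread inside the muscle group, from MB to GAS, was as large as the difference. Without GAS the differences of Pygm and Ppp1r3c changed sign, to -5.30 and -4.41 percentage points. Without MB, Phka1 came to 2.86 points higher in muscle (exact permutation p = 0.0476, the smallest possible), where 7.12% of all genes reached that threshold. Within the 6 cell types processed as nuclei, no p below 0.1 is possible, and Pygm differed by 31.8 points (exact permutation p = 0.4).

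For H3K27me3, Ppp1r3c was lower in muscle by a difference of -72.0 percentage points, with means of 9.82% ± 17.0 (SD, n = 3) and 81.8% ± 18.4 (SD, n = 4). The groups did not overlap, with 0, 0 and 29.5% against 61.5% to 100%, and the exact permutation p of 0.0286 is the smallest that 35 assignments allow. Of all genes, 1.89% reached it with muscle lower and 1.65% with muscle higher, and the adjusted p was 0.807 over all genes. The other 7 members did not reach it. The cell types outside muscle were the same stem cell line in different media and macrophages from different sources, and are not independent units. Within the 5 nuclei-processed cell types the difference was -87.4 points, where no p below 0.1 is possible. The call was lost with promoter windows alone (-65.9 points, exact permutation p = 0.0571), with lists reduced to equal bases (-51.9 points, exact permutation p = 0.171) and with the 5000 strongest peaks of each list (-48.6 points, exact permutation p = 0.429).

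**Figure D5:**
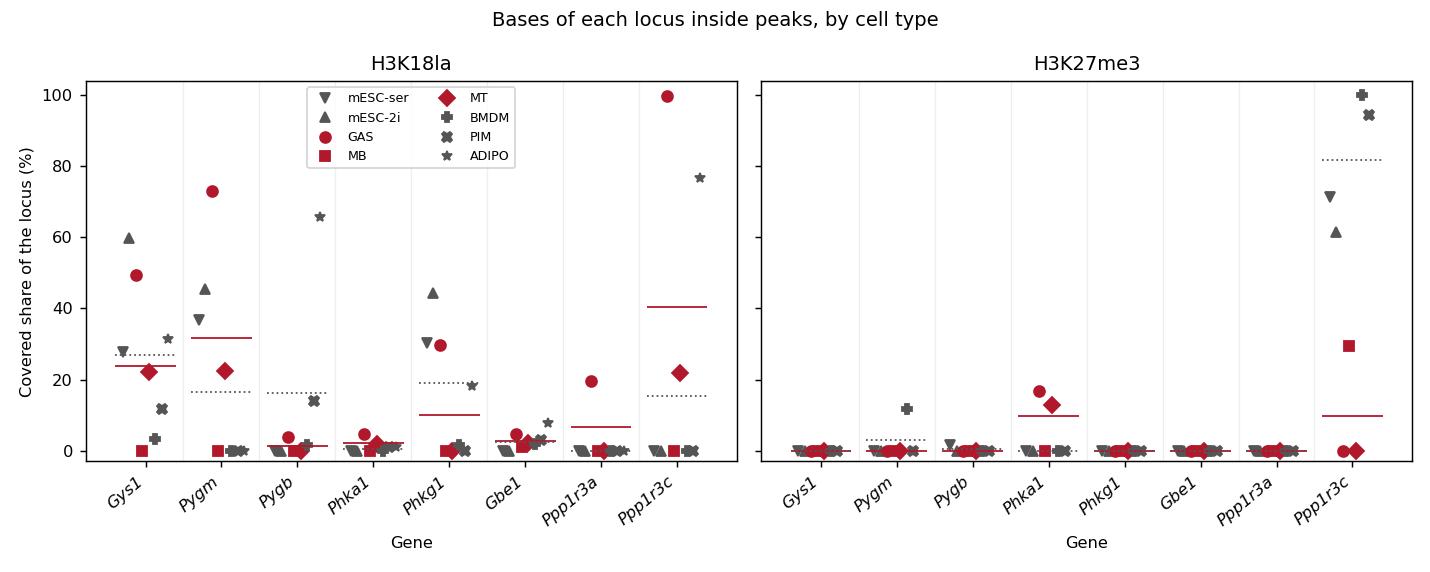
Covered share of each locus (y axis, percent of bases inside peaks) for H3K18la in 8 cell types and H3K27me3 in 7. Red symbols are the muscle cell types and grey symbols the others, with solid red and dotted grey lines at their means. GAS lies at 73.0% for Pygm and 99.7% for Ppp1r3c with H3K18la, MB at 0 for both, and H3K27me3 at Ppp1r3c spans 61.5% to 100% in the other cell types.

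Promoter calls were also counted at 23 other genes of glycogen metabolism. H3K18la was called at 20 of 23 in ADIPO (87.0%, against 44.7% of all genes), at 15 in GAS (65.2%, against 36.1%), at 14 in MT (60.9%, against 34.8%) and at 12 in PIM (52.2%, against 37.8%). It was called at 8 in mESC-2i (34.8%, against 37.8%), at 4 in BMDM (17.4%, against 18.5%), at 3 in MB (13.0%, against 11.1%) and at 3 in mESC-ser (13.0%, against 33.4%). The last 4 shares lay near or below those of all genes. H3K4me3 was above the share of all genes in all 4 lists, with 22 of 23 in GAS (95.7%, against 64.2%), 20 in PIM (87.0%, against 59.4%), 19 in mESC-2i (82.6%, against 61.8%) and 15 in mESC-ser (65.2%, against 48.8%). H3K27ac was called at 18 in PIM (78.3%, against 48.8%), at 18 in ADIPO (78.3%, against 46.1%) and at 16 in GAS (69.6%, against 47%). It was called at 12 in mESC-ser (52.2%, against 40.2%) and at 12 in BMDM (52.2%, against 34%).

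The liver forms of the same enzymes had fewer active promoter calls in GAS than the muscle forms, with Ppp1r3b as the exception. Of all genes, 36.1% had H3K18la, 47% H3K27ac and 64.2% H3K4me3 in a promoter window in GAS. This is a description of single genes chosen by name, and the difference was not tested. Gys2, the liver glycogen synthase, had no H3K18la, H3K27ac or H3K4me3 in GAS and an H3K27me3 promoter call there. Its one active call was H3K18la in ADIPO. Pygl, the liver phosphorylase, had H3K18la and H3K27ac in PIM and ADIPO and not in GAS, where it had H3K4me3. Phkg2, the liver catalytic subunit of the kinase, had H3K18la in ADIPO alone of 8 lists, and H3K4me3 without H3K27ac in GAS. Phka2, the liver alpha subunit, had H3K18la in GAS, MT, PIM, ADIPO and mESC-2i, and H3K4me3 without H3K27ac in GAS. Ppp1r3b, the liver targeting subunit, had H3K18la and H3K27ac in GAS, BMDM, PIM and ADIPO, H3K4me3 in GAS and H3K27me3 in mESC-ser, GAS and MT.

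Genes whose 24 promoter calls were most like those of a member were named by the number of lists that differ. Ppp1r3a shared all 24 calls with 14 other genes, and the 3 nearest in covered share were Klhl38, Tmod4 and Mettl11b. Gbe1 shared them with 18 genes, the nearest being Ppm1k, Ift57 and Qk, and Phka1 with 5, Tmem218, Usp39 and Wdr44 among them. Gys1 shared them with 481 genes, the third nearest of which was its neighbour Ruvbl2. Pygm (Cystm1, Ephx1 and Mtcl1), Pygb (Lxn, Ssh2 and Siah1a), Phkg1 (Hspb8, Lrrn4cl and Rbms2) and Ppp1r3c (Pitpnm2, Hr and Colca2) had no gene with identical calls. Their nearest genes differed in 1 list, or in 2 lists for Rbms2, Hr and Colca2. These likenesses are over 24 lists that share cell types.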

How the data were processed

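CUT&Tag peak lists of 41 samples in 24 groups (cell type and hPTM) were analysed, with 17 groups of 2 samples and 7 of 1 sample. Per the submitters' processing notes and the study's methods, the authors trimmed reads (Trim Galore 0.6.6), aligned them to mm10 (Bowtie2 2.4.4), combined the coverage of replicates with bedtools 2.30 and called peaks with SEACR 1.3 in stringent mode, keeping the top 1% without a control. The deposited signal columns hold total and maximum signal (coverage) as whole numbers without depth scaling, so that ranks were taken within a list only. SEACR joins nearby enrichment, which widens peaks, and removal of duplicate reads is not given in the sources used here. Some stem cell lists carry no medium in their names; their samples' descriptions point to serum, and they were used as mESC-ser.

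Peaks on chromosomes 1 to 19 and X were intersected with GENCODE vM21 genes by at least 1 bp, with Python 3.11.15, numpy 2.4.6, pandas 2.3.3 and scipy 1.17.1. RefSeq start sites matched 16450 of 21755 genes by symbol, among them all 8 members, and gave the sequences (GRCm38.p6). Peaks were named within gene bodies when in the top 10% of their list, or else the highest ranked. Muscle and other cell types were compared by exact permutation of cell types with Benjamini-Hochberg adjustment over all genes. The scripts for peak overlap and for the permutation test were tested on simulated data. The members, lists and tests were chosen with earlier results of these data known. Figures were drawn with matplotlib 3.10.9. The test of muscle against other cell types over the wider list of glycogen genes is not reported here.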

Additional observations from a re-analysis of the deposited data

How the results depend on the processing

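Counts of promoter calls kept within 1.5 times of their values of 31 (H3K18la), 24 (H3K27ac), 23 (H3K4me3) and 7 (H3K27me3) with windows of 1000 bp, protein-coding transcripts only, an overlap of at least 200 bp, the RefSeq start window only and peaks with a TSS of another gene left out, the last 2 chosen after seeing the data. With the 5000 peaks of largest total signal in each list they were 16, 13, 13 and 3. With lists cut to equal bases within an hPTM they were 10 for H3K18la and 4 for H3K27me3, and H3K18la in GAS was then called at 2 members, Pygm and Ppp1r3c (3.37% of all genes), and in ADIPO at 4 (4.99%). These settings change the number, the signal and the width of the peaks together, and the cause of the lower counts was not tested. Members past an exact p of 0.05 between muscle and other cell types numbered 0 for H3K18la and 1 for H3K27me3 (Ppp1r3c). Leaving out each cell type gave 0 to 1 for H3K18la (1, Phka1 with 2.86 points, without MB) and 0 for H3K27me3, where fewer cell types allow no p below 0.0667 or 0.1. For H3K27me3 the count was also 0 with promoter windows only, with 5000 peaks, with equal bases and, chosen after seeing the data, with the nuclei-processed cell types alone. Differences for H3K18la that changed sign (percentage points, main values in parentheses) were as follows. Gys1 (-2.95) had 0.590 with promoter windows only, 1.14 with 5000 peaks, 5.28 without mESC-2i, 8.98 without MB and 8.31 in nuclei. Phkg1 (-9.02) had 2.26 with promoter windows only and 3.29 in nuclei. Gbe1 (0.0853) had -1.33 with 5000 peaks, -0.653 with equal bases, -0.550 without either stem cell list, -0.968 without GAS, -0.0700 without BMDM and -1.61 in nuclei. Without GAS, Pygm (15.3) had -5.30 and Ppp1r3c (25.2) had -4.41. None of these differences passed the test in any setting, and the cause of the changes was not tested. No paired analysis was possible because each peak list pools the replicates of its group. Without replicate lists, the spread between samples could not be measured.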
